A study of Rattus norvegicus with 18 samples.

Results

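The cytosolic ribosomal protein genes were taken by symbol: every probe whose gene name was Rpl, Rps or Rplp followed by a number, with the Rps6 kinases and predicted or similar entries left out. The array held 79 such genes among 35287 gene names, on 121 probes, and each gene was represented by its brightest probe over all arrays. Of these, 78 could be tested, among 27202 tested gene names, and 77 of the 78 were well above background on all 18 arrays. Sorted by symbol alone, they comprised 47 large-subunit genes, 30 small-subunit genes and Rps19bp1. The symbol rule takes in Rps19bp1 although it encodes a protein that binds Rps19 and is not part of the ribosome. Whether the product of a paralog such as Rpl7l1 is part of the ribosome was not tested. The remaining gene, the paralog Rpl26l1, was well above background on only 4 of 18 arrays and was not tested. Total RNA came from proximal sciatic nerve of adult male Sprague-Dawley rats after a piece of the left nerve had been cut out, and the labels give no other treatment and no genotype. There were 6 time-points (0, 0.5, 1, 3, 6 and 9 h) with 3 one-colour arrays each. The 0 h group carries the same label of resection and was the main reference, with further contrasts against 1 h. Whether an array held RNA of 1 rat or of several was not stated, so the p-values below measure only the spread between arrays, which may be technical.

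The ribosome is built from a small and a large subunit, each of ribosomal RNA and many proteins. Messenger RNAs for these proteins are among the most abundant in nearly every cell and usually carry a pyrimidine tract at their 5′ end, the TOP motif, through which the mTORC1 pathway controls their translation. New subunits are assembled in the nucleolus by a separate set of factors, among them fibrillarin and nucleolin. In the injured nerve, protein synthesis in axons and Schwann cells is part of the response that precedes regrowth. In a whole segment, fewer cells of a type and less RNA per cell cannot be told apart.

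The array measured each gene with a DNA oligonucleotide of 60 bases. The probes of Rps25 are shown because they are exact reverse complements of each other over all 60 bases, and those of Rpl7l1 because both were called higher at 3 h, 6 h and 9 h. The single probes of Rps29 and Rps26 are shown as those of a bright gene called lower and a dim gene called higher, and the brighter probe of Rpl30 as that of a gene called lower at 6 h under most scalings. Lower case is used throughout, except that capitals in the second Rps25 probe mark the stretch that is the reverse complement of the first.
Rps25, brighter probe: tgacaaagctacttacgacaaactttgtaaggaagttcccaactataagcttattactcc
Rps25, dimmer probe: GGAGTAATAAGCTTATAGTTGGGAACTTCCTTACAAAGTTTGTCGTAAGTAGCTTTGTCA
Rpl7l1, brighter probe: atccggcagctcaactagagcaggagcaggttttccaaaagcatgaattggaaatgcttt
Rpl7l1, dimmer probe: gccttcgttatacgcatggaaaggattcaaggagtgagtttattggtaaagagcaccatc
Rps29: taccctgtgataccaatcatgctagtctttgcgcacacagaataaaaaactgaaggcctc
Rps26: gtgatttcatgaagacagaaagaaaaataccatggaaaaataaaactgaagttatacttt
Rpl30, brighter probe: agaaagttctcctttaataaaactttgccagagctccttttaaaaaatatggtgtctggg
In the annotation of the array design, on rat build rn4, the Rps25 probes lie at chr8:47375104-47375163 on the plus and the minus strand, respectively. The Rps29 probe lies at chr6:91115711-91115770 and the Rps26 probe at chr7:1919153-1919212, both on the minus strand. The Rpl7l1 probes lie on chromosome 9, plus strand, with spans of 9398853 to 9400850 for the brighter and 9396354 to 9397177 for the dimmer, both longer than the probe. The brighter Rpl30 probe lies at chr7:69886743-69886802 on the minus strand.

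Promoter entries from RefSeq (build GRCr8) were matched for 62 of the 78 genes. An annotated start at a C followed by at least 4 more pyrimidines, the letters of a TOP motif, was present in 22 of these 62 genes (35.5%) and in 2.4% of 19005 protein-coding promoters. Allowing the run to begin up to 5 bases to either side of the annotated start gave 59.7% and 16.4%. On either strand, from 250 bases before to 50 after the start, the motif CCGGAAG was found in 33.9% of the 62 and in 11.2% of the protein-coding promoters, AAGATGGC in 8.1% and 3.9%, and TATAAA in 8.1% and 13.1%. The following stretches run from 60 bases before the annotated start to 30 bases from it, and show 3 genes with the tract beside Rpl7l1 and Rps19bp1, which lacked it. Capitals mark the pyrimidine run from the start where it begins with C.
Rplp1 (GRCr8 chr8:71290843-71290932, minus strand): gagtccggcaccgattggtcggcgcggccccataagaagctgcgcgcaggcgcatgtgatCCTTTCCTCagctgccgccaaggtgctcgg
Rpl34 (GRCr8 chr2:221962254-221962343, minus strand): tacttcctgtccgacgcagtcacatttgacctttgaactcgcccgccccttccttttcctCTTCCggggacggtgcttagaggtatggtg
Rps26 (GRCr8 chr7:1643375-1643464, minus strand): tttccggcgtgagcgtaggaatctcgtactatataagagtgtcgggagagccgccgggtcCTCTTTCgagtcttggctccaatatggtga
Rpl7l1 (GRCr8 chr9:21695658-21695747, plus strand): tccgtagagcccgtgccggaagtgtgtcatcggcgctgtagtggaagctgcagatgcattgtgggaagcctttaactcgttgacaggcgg
Rps19bp1 (GRCr8 chr7:113692994-113693083, minus strand): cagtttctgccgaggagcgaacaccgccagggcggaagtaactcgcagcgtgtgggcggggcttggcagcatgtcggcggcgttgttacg
The 22 genes with the tract at the start had a median change of -0.18 on the log2 scale at 6 h and -0.04 at 9 h against 0 h, and the 40 matched genes without it -0.15 and -0.11.

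Signals are given on the log2 scale relative to the 75th percentile of each array, and changes as differences of the means of 3 arrays. The 75th percentile itself was 1203 to 1798 intensity units. A probe's brightness depends on its sequence, so signals order no genes by abundance. The ribosomal protein probes were bright, with a median of 6.16 against -1.87 for all tested genes, and 73 of 78 fell in the brightest sixth of genes, at 1.78 or above. The other 5 were Rpl3l, Rpl7l1, Rps26, Rps15 and Rps19bp1.

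The signals of most of these genes varied little over the 9 h. The difference between the highest and the lowest time-point mean had a median of 0.28 log2 units, against 0.66 for all tested genes and 0.45 for the other 4461 genes of the brightest sixth. It was below 0.5 in 68 of 78 genes (87.2%), against 32.9% of all genes and 57.3% of the other bright ones, and above 1 only in Rpl3l and Rps26. The SD between arrays of one time-point was also small, with a median of 0.09, against 0.23 for all genes and 0.13 for the other bright genes. The other bright genes were not matched in signal. The brightest sixth began at 1.78, while 72 of the 78 genes had a signal above 4. The part of signal level in the small ranges and SDs was not tested. At 6 h the 95% interval of the change lay within 0.5 log2 units of 0 for 65 genes, and at 9 h for 64.

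**Figure D1:**
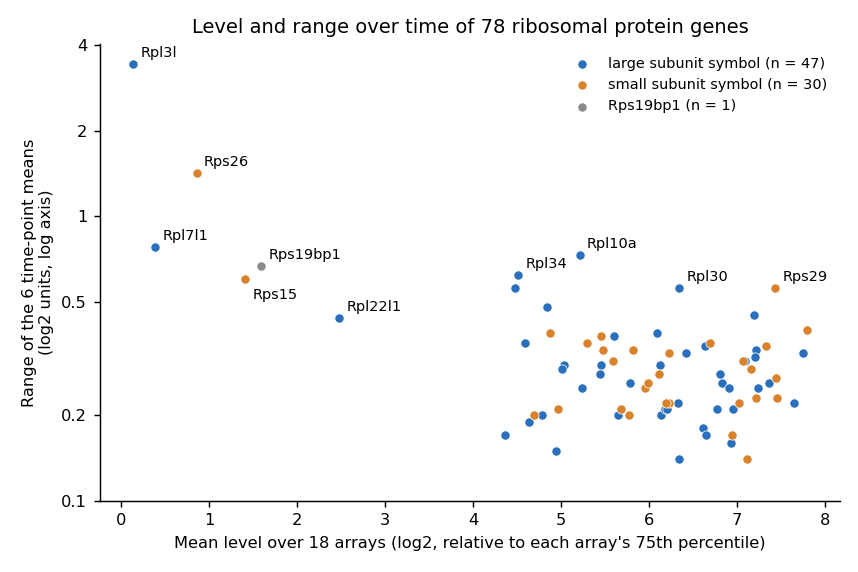
Each point is 1 of the 78 tested genes, with the mean signal over 18 arrays (log2, relative to the 75th percentile) on the horizontal axis and the range of the 6 time-point means (log2 units, on a log axis) on the vertical axis. Most genes sit at a signal above 4 with a range below 0.5, while Rpl3l and Rps26, both dim, have a range above 1.

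A moderated F-test over the 6 time-points called 18 of 78 genes (23.1%), where a call needed an unadjusted p below 0.01 and an adjusted p below 0.05 over all tested probes. The background share over all tested genes was 34.6%, and among the other genes of the brightest sixth 44.8%. Against 0 h, 1 gene was called higher and 2 lower at 0.5 h, where 4.27% and 1.72% of all genes were called. At 1 h none was called in either direction, where 3.59% and 2.04% of all genes were called, and at 3 h 1 was higher and 0 were lower against 7.15% and 6.84%. At an unadjusted p below 0.05 in the same limma fit, the numbers of genes above 0 h were 3, 1, 2, 4 and 9 at 0.5, 1, 3, 6 and 9 h, and of genes below it 16, 4, 1, 27 and 21. The shares of all genes that passed this level in the same order of times were 13%, 13.4%, 15.3%, 19.1% and 24% above and 9.42%, 10.2%, 14.6%, 20.3% and 22.6% below. At 6 h 3 were higher and 18 lower, against 12.0% and 13.0% of all genes, and at 9 h 6 were higher and 9 lower, against 15.8% and 15.4%. The share called lower at 6 h was 23.1% of the 78 genes, beside 25.4% of the other genes of the brightest sixth. At 9 h these shares were 11.5% and 29.7%.

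The number of genes that fell depended on the scaling of the arrays. With each array shifted to its 75th percentile, the median change of the 78 genes was -0.12, -0.09, -0.03, -0.13 and -0.06 at 0.5, 1, 3, 6 and 9 h, and 64 genes lay below 0 at 6 h. The other genes of the brightest sixth had medians of -0.16 at both 6 h and 9 h. After quantile normalization the median of the 78 was 0.07 at 6 h and 0.16 at 9 h, with 4 genes called higher and 1 lower at 6 h. At 9 h it called 22 higher and 0 lower. In that setting 10.5% and 14.1% of all genes were called higher and lower at 6 h, and 13.6% and 16.7% at 9 h. The matrix deposited by the authors, which is quantile normalized, gave 5 higher and 1 lower at 6 h, and for 9 h the numbers were 21 and 0. Shifting each array to its median instead gave 1 higher and 20 lower at 6 h, and for 9 h the numbers were 1 and 16, with the median of all probes moved by -0.13 and -0.16. After normexp background correction of the raw signals 0 were called at 0.5, 1, 3 and 6 h and 1, Rpl7l1, at 9 h. For the deposited matrix, the shift to the median and normexp, the share of all genes called was not computed. The counts in these settings therefore have no background beside them. Of the 18 genes called lower at 6 h, 12 were still below 0 after quantile normalization and 1, Rpl30, was still called. All 3 called higher at 6 h and all 6 called higher at 9 h were also called higher after quantile normalization and in the deposited matrix. The falls at 6 h and 9 h given below are relative to the 75th percentile. Leaving out 1 array also moved the counts: 18 lower at 6 h became 10 without replicate 2 or 3 of 0 h or replicate 1 or 3 of 6 h, 9 lower at 9 h became 3 without replicate 2 of 0 h or replicate 1 of 9 h (5 if replicate 3 of 0 h was the one left out), and 6 higher at 9 h became 3 without replicate 1 of 0 h.

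**Figure D2:**
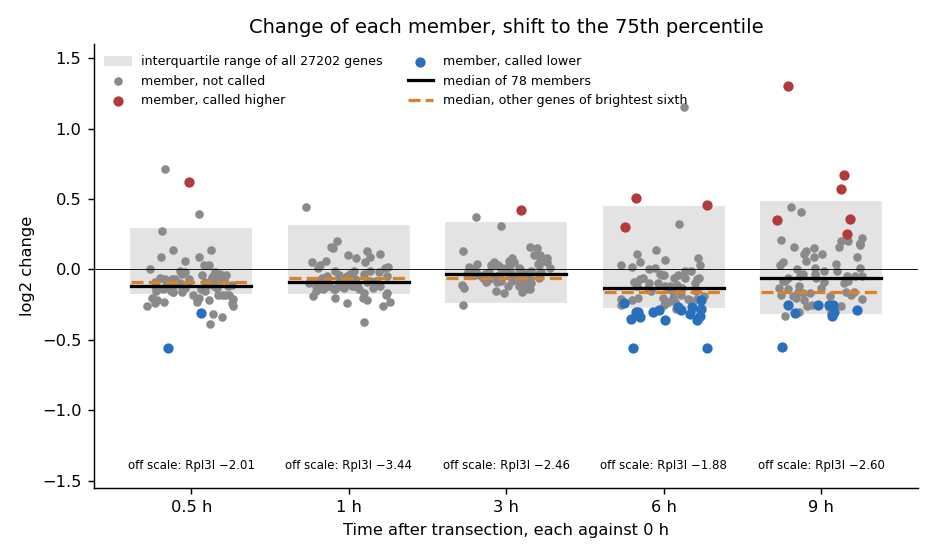
Each point is the log2 change of 1 gene against 0 h after the shift to the 75th percentile, with called genes in red (higher) or blue (lower). Grey boxes span the interquartile range of all 27202 genes, black lines are the median of the 78 genes and dashed lines that of the other genes of the brightest sixth; Rpl3l, written at the foot, is off scale. At 6 h and 9 h most points stay between -0.5 and 0.5.

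**Figure D3:**
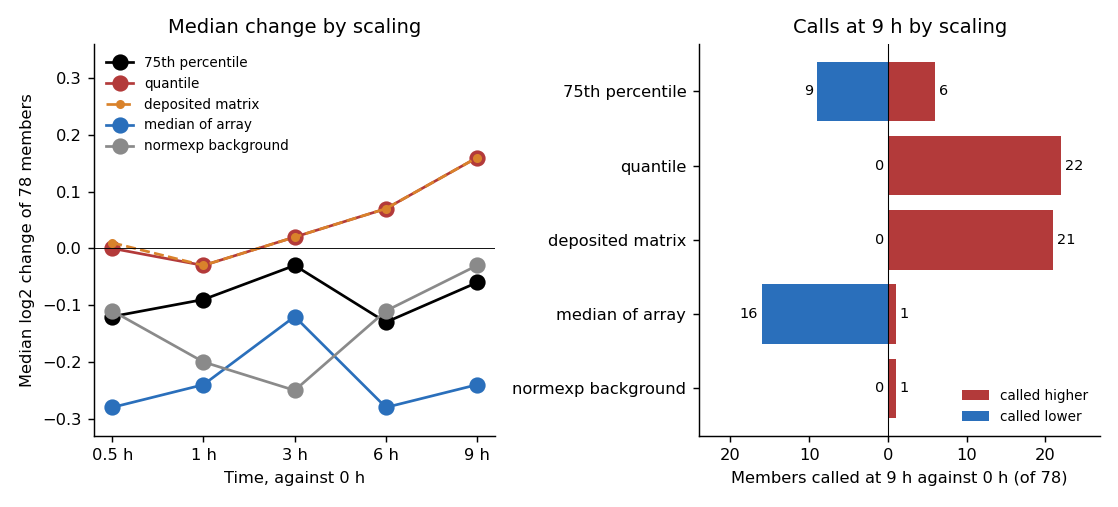
The left panel gives the median log2 change of the 78 genes against 0 h at each time-point under 5 scalings, and the right panel the number called higher (red) or lower (blue) at 9 h. The median at 9 h is 0.16 after quantile normalization and in the deposited matrix, and -0.24 after the shift to the median.

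Time and scan day overlapped. The first scan day held the arrays of 0 and 0.5 h, the second those of 1, 3 and 6 h with 2 of 9 h, and the third the remaining array of 9 h. The changes from 1 h on against 0 h therefore cannot be told apart from the scan day, whereas 0.5 h against 0 h, and 3 h and 6 h against 1 h, lay within a day. No slide held arrays of more than 1 time-point, so time and slide cannot be told apart in any contrast. With the slide as a random block, the fitted correlation within slides was -0.0125 and the counts against 0 h were the same at every time-point. Because every slide lay within 1 time-point, this fit cannot separate slide from time. Against 1 h, 1 gene was higher and 0 lower at 3 h (5.58% and 4.57% of all genes; 8 and 0 at an unadjusted p below 0.05, beside 11.6% and 12.8%), 3 higher and 11 lower at 6 h (11.4% and 12.6%), and 6 higher and 6 lower at 9 h (11.7% and 13.7%). After quantile normalization the 6 h and 9 h contrasts had 8 and 22 higher and none lower. Leaving out 1 array gave 6 to 19 lower for the first and 1 to 6 for the second.

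Among the paralogs, Rpl7l1, which encodes a relative of Rpl7, rose from 3 h on. Its signal was 0.15, 0.03 and 0.23 at 0 h. The 0.5 h arrays read 0.11, -0.02 and -0.02 and the 1 h arrays 0.14, 0.05 and 0.28. Those of 3 h read 0.50, 0.52 and 0.65, those of 6 h 0.67, 0.61 and 0.65 and those of 9 h 0.74, 0.60 and 1.06. All 9 arrays from 3 h on were above all 9 earlier ones. The change against 0 h was 0.42 ± 0.11 (SE), 0.51 ± 0.11 and 0.67 ± 0.11 at 3, 6 and 9 h (adjusted p = 0.0219, 0.00414 and 0.000501), or 1.59-fold at 9 h. Against 1 h, within the second scan day for 3 h and 6 h, it was 0.40 and 0.49 (adjusted p = 0.0333 and 0.00549). That at 3 h was lost in 9 of 35 alternatives, among them normexp (0.24, adjusted p = 0.83) and leaving out replicate 1 or 2 of 1 h or any array of 3 h (adjusted p = 0.0544 to 0.121). Its second probe also rose, by 0.75 and 0.79 at 6 and 9 h (adjusted p = 0.000228 and 0.000109). The rise at 9 h was called under every scaling tried. At 6 h the call was lost with normexp (0.45, adjusted p = 0.1). At 3 h it was lost with normexp (0.29, adjusted p = 0.192), with the shift to the median (0.32, adjusted p = 0.0748), or when replicate 2 of 0 h was left out (adjusted p = 0.09), and likewise for replicates 2 and 3 of 3 h (adjusted p = 0.0561 and 0.0761). Rpl7 itself, the large-subunit protein, changed by -0.08 ± 0.08 at 9 h (adjusted p = 0.44).

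Rps19bp1 was called lower at 0.5 h and higher at 6 h and 9 h. Its protein binds Rps19 and is known as a regulator of the deacetylase Sirt1. The signal was 1.45, 1.61 and 1.64 at 0 h. The 0.5 h arrays read 1.34, 1.11 and 1.32 and the 1 h arrays 1.40, 1.41 and 1.24. Those of 3 h read 1.63, 1.53 and 1.53, those of 6 h 1.88, 1.92 and 1.81 and those of 9 h 1.90, 1.91 and 1.96. The arrays of 6 h and 9 h did not overlap with those of any earlier time-point. The change against 0 h was -0.31 ± 0.09 at 0.5 h (adjusted p = 0.0489), 0.30 ± 0.09 at 6 h (adjusted p = 0.0184) and 0.36 ± 0.09 at 9 h (adjusted p = 0.00609). The call at 0.5 h was kept in 12 of 34 alternatives and lost, for example, after quantile normalization (-0.27, adjusted p = 0.0727), with normexp (-0.29, adjusted p = 0.781) and when any 1 of the 3 arrays of 0.5 h was left out (adjusted p = 0.0764, 0.17 and 0.0953). That at 6 h was lost in 7 of 33 and that at 9 h in 3 of 33. Both were lost with the shift to the median (0.15 and 0.18, adjusted p = 0.36 and 0.251) and with normexp (0.30 and 0.42, adjusted p = 0.259 and 0.0723), and the one at 6 h also without replicate 1 of 0 h (adjusted p = 0.0703) or when replicate 1 or 2 of 6 h was dropped (adjusted p = 0.0521 and 0.0634). Against 1 h the rise was 0.53 and 0.58 at 6 and 9 h (adjusted p = 0.000723 and 0.000274).

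Of the other paralogs, Rpl22l1 read 2.13, 2.13 and 2.42 at 0 h and 2.71, 2.82 and 2.48 at 9 h. The difference of 0.44 ± 0.16 had an adjusted p of 0.0402 but an unadjusted p above the threshold, and was not called. Its partner Rpl22 changed by -0.08 ± 0.09 (adjusted p = 0.533). Rpl36al changed by 0.13 ± 0.09 and Rps4x, the X-linked form of Rps4, by -0.17 ± 0.09 at 9 h, neither of them called. Rpl39 and Rps27, the partners of Rpl39l and Rps27l, changed by -0.19 ± 0.10 and -0.33 ± 0.12 at 9 h (adjusted p = 0.157 and 0.0392), and neither was called against 0 h. Rps4x was called lower at 6 h (-0.36 ± 0.09, adjusted p = 0.00732).

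Rpl3l, the form of Rpl3 found in skeletal muscle and heart, had the widest range of all. It read 5.16, 0.62 and 0.82 at 0 h. The 0.5 h arrays read 0.88, -0.26 and -0.06 and the 1 h arrays -1.94, -1.80 and 0.01. Those of 3 h read -1.10, 1.96 and -1.63, those of 6 h 2.60, -1.76 and 0.12 and those of 9 h 0.62, -1.78 and -0.03. One array at 0 h stood far above the others, and the groups overlapped at most time-points. The change of -2.60 ± 1.32 at 9 h had an adjusted p of 0.14, and the F-test was not called (adjusted p = 0.32). Across the same arrays the summed level of 14 skeletal muscle markers was 7.32 to 11.2 at 0 h against 2.14 to 7.63 at 9 h, and 0 of the 14 were called. Their part in the Rpl3l signal was not tested. Rpl3 changed by 0.21 ± 0.11 at 9 h (adjusted p = 0.164).

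Rpl34 differed from 0 h at the earliest time-point. The signal of this large-subunit gene was 3.98, 4.07 and 4.28 at 0 h. The 0.5 h arrays read 4.70, 4.75 and 4.73 and the 9 h arrays 4.76, 4.95 and 4.34, all above those of 0 h. The change was 0.62 ± 0.13 at 0.5 h (adjusted p = 0.0157), which lay within one scan day, 0.46 ± 0.13 at 6 h (adjusted p = 0.0176) and 0.57 ± 0.13 at 9 h (adjusted p = 0.00439). The differences of 0.44 at 1 h and 0.31 at 3 h were not called. The call at 0.5 h was lost without replicate 1 or 2 of 0 h or replicate 2 or 3 of 0.5 h (adjusted p = 0.0535, 0.0584, 0.0509 and 0.0601). It was also lost with the shift to the median (0.45, adjusted p = 0.144) and with normexp (0.63, adjusted p = 0.304). The calls at 6 h and 9 h were lost in 7 and 3 of 33 alternatives. They were lost with the shift to the median (0.31 and 0.40, adjusted p = 0.239 and 0.119) and with normexp (0.52 and 0.60, adjusted p = 0.147 and 0.0682), and that at 6 h when replicates 1 and 2 of 0 h (adjusted p = 0.0641 and 0.0562) and 2 and 3 of 6 h (adjusted p = 0.0532 and 0.0531) were left out in turn.

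Rpl10a fell at 0.5 h and was back at 1 h. It read 5.25, 5.39 and 5.31 at 0 h. The 0.5 h arrays read 4.68, 4.81 and 4.80 and the 1 h arrays 5.21, 5.22 and 5.16. The 3 arrays of 0.5 h lay below all 15 others. The change of -0.56 ± 0.10 at 0.5 h (adjusted p = 0.00742) was -0.46 after quantile normalization (adjusted p = 0.0209) and -0.58 with normexp, where it was not called (adjusted p = 0.334). The rn4 annotation places this probe on chromosome 4 and RefSeq places the gene on chromosome 20 of GRCr8, and what the probe reads was not tested. Such a mismatch of chromosomes was present for 7 of the 62 genes compared, the others being Rpl21, Rpl35a, Rpl36, Rpl38, Rpl9 and Rps10. In addition, 9 of the 78 probes shared a run of at least 25 bases with a probe under another gene name, so these values are uncertain where copies are near-identical.

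Among the genes mutated in inherited anemia were Rps7, Rps19, Rps24, Rps26 and Rpl35a. Rps26 was called higher at 9 h against 0 h, and at 6 h and 9 h against 1 h (1.27 and 1.42, adjusted p = 0.031 and 0.0169). Its dim probe read 0.02, 0.31 and 0.57 at 0 h. The 0.5 h arrays read 1.09, 1.16 and 0.77, those of 1 h -0.66, 0.68 and 0.50 and those of 3 h 0.97, 1.28 and -0.25. Those of 6 h read 1.19, 1.58 and 1.56 and those of 9 h 1.77, 2.03 and 0.99, all above the arrays of 0 h. The change of 1.30 ± 0.40 at 9 h (adjusted p = 0.0226) was 2.45-fold. The calls against 1 h were lost in 8 of 35 alternatives at 6 h and 5 of 35 at 9 h, for example to 0.86 and 1.01 without replicate 1 of 1 h (adjusted p = 0.134 and 0.0826), and also without single arrays of 6 h (replicates 2 and 3) and 9 h (replicates 1 and 2). The call at 9 h against 0 h was lost without replicate 1 or 2 of 0 h or of 9 h (adjusted p = 0.0708, 0.0553, 0.0646 and 0.0794) with the shift to the median (1.12, adjusted p = 0.0578) and with normexp (1.28, adjusted p = 0.0519), and the F-test was not called (adjusted p = 0.0374). The other 4 genes changed by between -0.26 (Rps24) and 0.11 (Rps19) at 9 h, and none of the 4 was called at any time-point against 0 h.

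In the large-subunit stalk, where the P proteins recruit elongation factors, Rplp1 was called lower at 6 h and 9 h and Rplp2 was not called. Rplp1 read 7.88, 7.94 and 7.90 at 0 h. The 6 h arrays read 7.49, 7.62 and 7.60 and the 9 h arrays 7.56, 7.70 and 7.70, all below those of 0 h. The changes were -0.33 ± 0.07 and -0.25 ± 0.07 (adjusted p = 0.00355 and 0.0144), but 0.03 and 0.19 after quantile normalization (adjusted p = 0.791 and 0.0832). In the deposited matrix they were 0.07 and 0.24 (adjusted p = 0.516 and 0.0253). It was the only gene of the group with repeated spots, and its 10 spots had a median SD of 0.05. Rpl5 and Rpl11, which carry the 5S RNA and bind Mdm2 when assembly is disturbed, changed by 0.20 ± 0.11 and -0.06 ± 0.08 at 9 h, and neither was called at any time-point against 0 h. Rps6, the substrate of S6 kinase, was called lower at 6 h (-0.24 ± 0.08, adjusted p = 0.0381) and not at 9 h (-0.16). The call at 6 h was kept in 13 of 33 alternatives and lost in 18, and the sign turned after quantile normalization (0.12, adjusted p = 0.267) and in the deposited matrix (0.12, adjusted p = 0.263). At 9 h, quantile normalization gave a call in the other direction (0.24, adjusted p = 0.0275). Rps27a, whose product is fused to ubiquitin, read 5.64, 5.75 and 5.78 at 0 h and 5.94, 6.08 and 5.91 at 9 h (0.25 ± 0.08, adjusted p = 0.03). This call was at the threshold and was lost without most single arrays of 0 h, 0.5 h and 9 h, for example to 0.20 without replicate 2 of 9 h (adjusted p = 0.107).

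**Figure D4:**
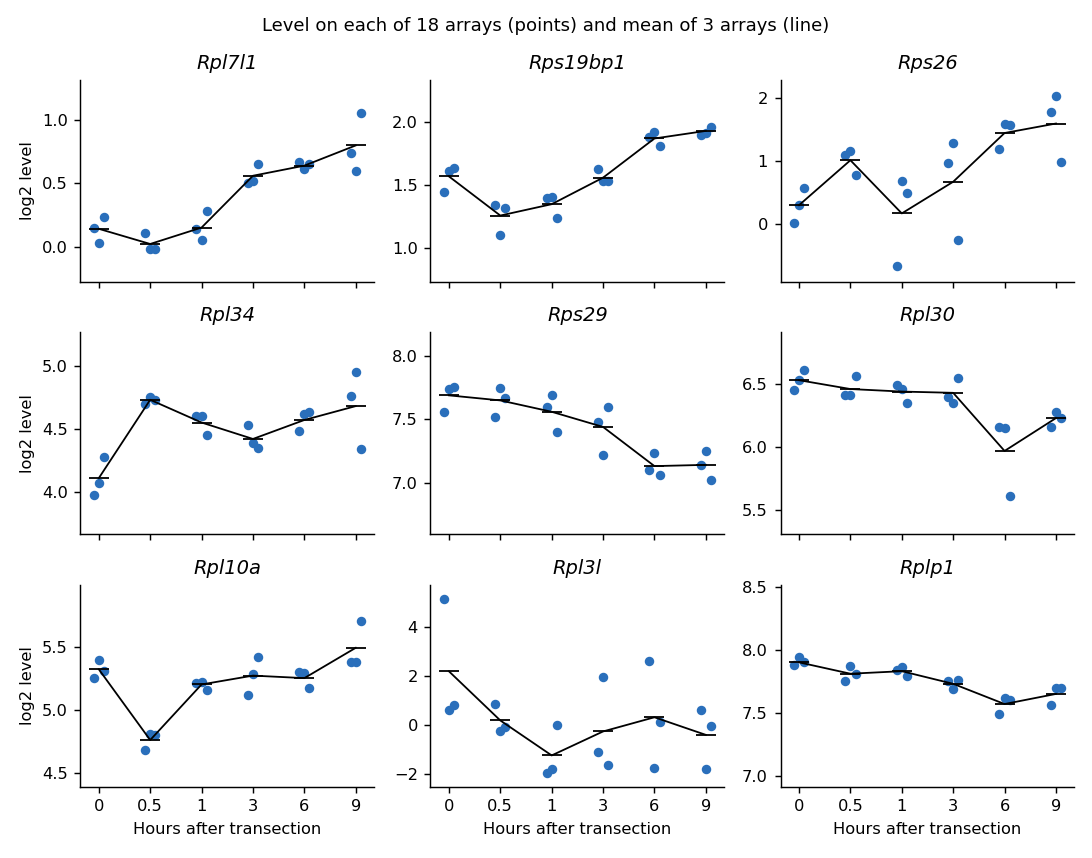
Signals (log2, relative to the 75th percentile) of 9 genes on each of the 18 arrays (points) with the mean of 3 arrays (line), against hours after transection; each panel has its own vertical range. Rpl7l1 and Rps19bp1 are high at 6 h and 9 h on all arrays, Rpl34 and Rpl10a move at 0.5 h, and the third 6 h array of Rpl30 lies below the other two.

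Among the genes called lower at 6 h, Rps29 and Rpl30 had the largest falls. Rps29, a zinc-binding protein of the small subunit, read 7.56, 7.74 and 7.76 at 0 h. The 6 h arrays read 7.10, 7.23 and 7.06 and the 9 h arrays 7.14, 7.25 and 7.02, all below those of 0 h. The changes of -0.56 ± 0.12 and -0.55 ± 0.12 (adjusted p = 0.00342 and 0.00286) shrank to -0.25 and -0.20 after quantile normalization and were then not called (adjusted p = 0.0873 and 0.152). Rpl30, a small protein of the large subunit, read 6.45, 6.53 and 6.61 at 0 h, while the 6 h arrays read 6.16, 6.15 and 5.61, replicate 3 well below the others. Its change of -0.56 ± 0.13 at 6 h (adjusted p = 0.00586) was called with all scalings except normexp, at -0.37 after quantile normalization (adjusted p = 0.0314). Its second probe changed by -0.12 (adjusted p = 0.406).

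Of 6 genes with reported roles outside the ribosome, 2 were called against 0 h, both lower at 6 h, where 13.0% of all genes and 25.4% of the other genes of the brightest sixth were. Rpl13a, which can silence transcripts of inflammation, read 7.23, 7.30 and 7.33 at 0 h and 6.82, 6.95 and 7.04 at 6 h. It was called lower at 6 h (-0.35 ± 0.08, adjusted p = 0.00636). Rpl26, which can bind the mRNA of p53, was also lower at 6 h (-0.29 ± 0.07, adjusted p = 0.00785). Each of these calls was lost in 4 of 33 alternatives, quantile normalization among them, and the changes shrank to as little as -0.10 and -0.02. Against 1 h, Rpl13a was called lower at 6 h (-0.45, adjusted p = 0.00138) and Rpl26 was not (-0.19, adjusted p = 0.0648). The second probe of Rpl26 changed by -0.23 at 6 h against 0 h (adjusted p = 0.0786). Rps3, Rpl10, Rpl22 and Rpl38 changed by 0.18, 0.01, -0.08 and -0.16 at 9 h, and none of the 4 was called at any time-point against 0 h.

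Besides those named, Rpl9, Rpl21, Rpl29, Rpl35, Rpl37, Rps2, Rps14, Rps15a, Rps16, Rps23 and Rps28 were called lower at 6 h, by 0.22 to 0.36 log2 units. At 9 h, Rpl21, Rpl29, Rpl35, Rpl37, Rps14, Rps16 and Rps18 were called lower together with Rplp1 and Rps29. The largest rise among the other bright genes was that of Rpl18, which read 4.81, 4.83 and 4.71 at 0 h and 5.06, 5.0 and 5.35 at 9 h (0.35 ± 0.11, adjusted p = 0.021). Without replicate 3 of 9 h, the array of the third scan day, it was 0.25 (adjusted p = 0.102), and without replicate 3 of 0 h 0.31 (adjusted p = 0.0734). The shift to the median gave 0.18 (adjusted p = 0.245) and normexp 0.33 (adjusted p = 0.447), while quantile normalization gave 0.52 (adjusted p = 0.00326). The second probe of Rpl18 changed by 0.34 (adjusted p = 0.0503). Against 1 h the change of the brighter probe at 9 h was 0.49 (adjusted p = 0.00399), a call lost in 3 of 35 alternatives.

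By subunit, the mean over 46 large-subunit genes, without Rpl13, which lacked 1 value, was 5.83 ± 0.02 (SD, n = 3) at 0 h, 5.69 ± 0.01 at 6 h and 5.75 ± 0.04 at 9 h. Without Rpl3l as well, a choice made after its values were seen, the mean over 45 genes was 5.91 ± 0.06, 5.80 ± 0.04 and 5.89 ± 0.04 at these time-points. For the 30 small-subunit genes it was 6.03 ± 0.06, 5.90 ± 0.04 and 5.99 ± 0.04. At 0.5, 1 and 3 h the mean was 5.70, 5.70 and 5.77 over the 46 large-subunit genes and 5.82, 5.85 and 5.90 over the 45. Over the small-subunit genes it was 5.94, 5.95 and 6.02. The median change at 6 h was -0.12 for the large and -0.19 for the small subunit, and the difference between the subunits was not tested.

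Several genes had more than 1 tested probe, and these did not always move alike. Of 31 such genes, 10 had probes of opposite sign at 9 h and 11 had probes that differed in the F-test call. The 8 genes called lower at 6 h that had further tested probes had 16 of them, of which 14 were below 0 and 1 was called lower, with a median of -0.14. For Rps2 the brightest probe changed by -0.30 and a second one by -0.23 at 6 h, while the other two changed by 0.00 and -0.03 (adjusted p = 0.00432, 0.0355, 0.984 and 0.846). Both Rps25 probes changed without a call at 9 h (0.11 and -0.01), and the reverse complement read 2.75 against 4.87 for the brighter probe. Further probes on the opposite strand were those of Rpl37 (0.03 against 6.80) and Rps15 (0.67 against 1.41). The probe named Rps28 that lies on chromosome 16 of rn4 read -3.82 against 7.07 for the brightest one on chromosome 7. It was called higher at 9 h (1.51, adjusted p = 0.0133), while the brightest one changed by -0.13.

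Some ribosomal proteins carry other symbols. Fau, whose product holds the small-subunit protein eS30, was called lower at 9 h (-0.41 ± 0.09, adjusted p = 0.00405). Rpsa and Rack1 changed by 0.16 ± 0.08 and 0.02 ± 0.09 and were not called.

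Genes for ribosome assembly were mostly called higher by 9 h. Of 25 tested biogenesis genes, 14 were called higher at 3 h, 20 at 6 h and 22 at 9 h, with none lower at these time-points, where 7.15%, 12.0% and 15.8% of all genes were called higher. Their median change was 0.39, 0.67 and 0.83, beside -0.03, -0.13 and -0.06 for the ribosomal protein genes. At 9 h the median was 0.88 after quantile normalization (21 higher), 0.66 with the shift to the median (17 higher) and 0.88 with normexp (17 higher), with none lower in any. The largest rises were those of Wdr43, a factor for the small subunit, from -3.97 ± 0.10 at 0 h to -1.81 ± 0.39 at 9 h (2.16 ± 0.17, adjusted p = 1.7e-06), and of the transcription factor Myc, from 0.71 ± 0.44 to 2.67 ± 0.31 (1.95 ± 0.24, adjusted p = 5.31e-05). At the other end, Sbds and Ubtf changed by -0.07 ± 0.11 and -0.06 ± 0.13. Fibrillarin (Fbl) and nucleolin (Ncl) rose by 0.83 ± 0.09 and 1.03 ± 0.12 (adjusted p = 3.17e-05 and 2.9e-05). The difference between the lists was not tested.

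**Figure D5:**
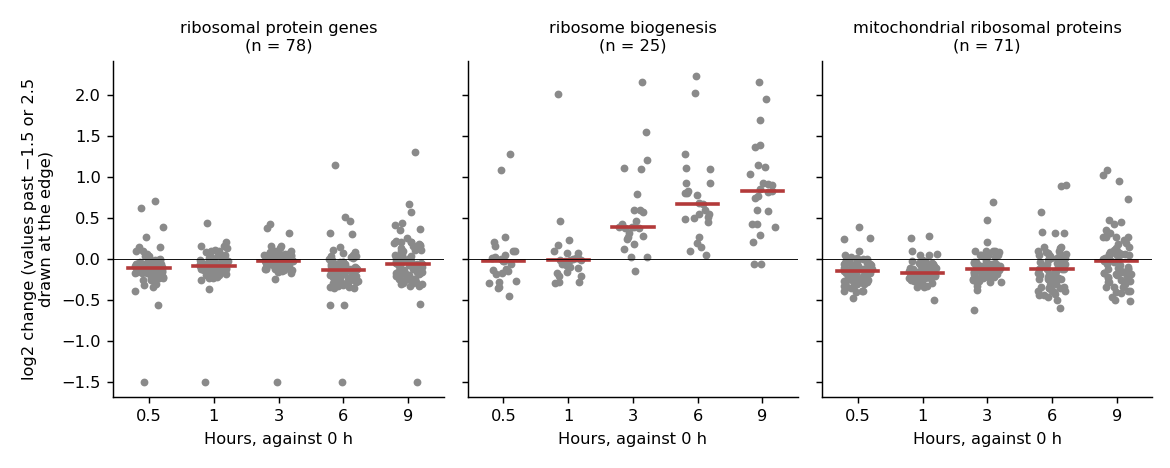
Log2 changes against 0 h at each time-point for the 78 ribosomal protein genes, 25 ribosome biogenesis genes and 71 mitochondrial ribosomal protein genes; points are genes, red lines medians, and Rpl3l is drawn at the lower edge. From 3 h on the biogenesis median is 0.39, 0.67 and 0.83, while the other two lists keep medians between -0.13 and -0.03.

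For the other translation mRNAs, 15 genes were tested and 4 were called higher and 3 lower at 9 h, beside 15.8% and 15.4% of all genes, with a median of 0.14. Nap1l1 and Eef1b2, a subunit of the elongation factor complex, changed by 0.51 ± 0.09 and 0.47 ± 0.11 (adjusted p = 0.000874 and 0.00573), and Tpt1 and Eef1g by -0.45 ± 0.08 and -0.32 ± 0.08 (adjusted p = 0.000539 and 0.00735). After quantile normalization 6 were higher and 0 lower (median 0.28), with the shift to the median 0 and 4 (median -0.03), and with normexp 1 and 0. Of 71 genes for mitochondrial ribosomal proteins, 8 were higher and 13 lower at 9 h (15.8% and 15.4% of all genes) with a median of -0.03, or 9 and 8 with a median of 0.01 after quantile normalization. At 6 h the numbers were 3 and 19 (12.0% and 13.0% of all genes) with a median of -0.12, or 3 and 12 after quantile normalization. At 9 h the shift to the median gave 3 and 18 with a median of -0.21, and normexp 1 and 0. Mrps2 changed by 1.02 ± 0.15 and Mrpl34 by -0.52 ± 0.10 (adjusted p = 0.000182 and 0.00123), while Mrps10 changed by 1.08 ± 0.73 without a call and Mrps33 by -0.50 ± 0.09 (adjusted p = 0.000933). Of 13 genes of the mTORC1 pathway, 2 were higher and 1 lower at 9 h (15.8% and 15.4% of all genes). Larp1, which binds the TOP motif, rose by 1.08 ± 0.12 (adjusted p = 2.37e-05), and Sesn1, an inhibitor of the pathway, fell by 0.76 ± 0.19 on the log2 scale (adjusted p = 0.00826). Tsc1 and Ddit4 changed by 0.71 ± 0.35 and -0.42 ± 0.42, neither of them called.

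Markers of other cells moved over the same hours. The summed level of 8 neutrophil markers was -0.42 to -0.31 at 0 h against 4.11 to 4.50 at 9 h, and 6 of the 8 were called higher, beside 15.8% of all genes. That of 8 fibroblast markers went from 10.35 to 10.44 at 0 h to 9.82 to 9.91 at 9 h, with 6 called lower beside 15.4% of all genes, and the lowest of the 3 values of 14 Schwann cell markers was 9.76 at 0 h, above the 9.42 to 9.61 of 9 h, with 2 higher and 5 lower. The ranges of 10 macrophage markers were 7.60 to 7.82 and 7.88 to 8.06, with 3 called higher and 1 lower. Endothelial, adipocyte and erythroid lists had 1, 0 and 0 genes called higher and 1, 0 and 0 called lower at 9 h. The part of these cells in the ribosomal protein values was not tested.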

How the data were processed

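Proximal sciatic nerve RNA was measured on 18 one-colour arrays with probes of 60 bases, grouped by the time in the sample labels. The deposited scanner files hold spot intensity processed by Feature Extraction 10.5.1.1, per the file headers. The matrix deposited by the authors holds log2 values with equal quantiles in all 18 columns (median 7.75) and was used as an alternative.

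Processed signals were put on the log2 scale and shifted to the 75th percentile of each array. Control and outlier spots were left out, spots of a probe were averaged, and no spot was saturated. Rpl13 then lacked 1 value at 1 h and was fitted on the others. A probe was tested (32111 of 41012) if some time-point had it well above background on each of its 3 arrays. One fit of limma 3.58.1 in R 4.3.3 over all arrays gave a moderated F-test and two-sided contrasts, with Benjamini-Hochberg adjustment over all tested probes. The fit was tested on simulated data. Alternatives changed the background correction, scaling, filter, probe rule, blocks, weights, prior, threshold or arrays included.

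The members, gene lists and tests were chosen with earlier results of these data known. Named genes were the members of fixed roles, the 5 largest changes each way at 9 h and the 3 at 3 h, members whose probes disagreed, and the 2 extremes each way of every other list. Rpl10a, Fbl and Ncl, and genes listed by their calls, were named after their values were seen. A few items of these lists are not reported here.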

Additional observations from a re-analysis of the deposited data

How the results depend on the processing

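Counts are of the 78 genes, against 0 h unless 1 h is named. Shares of all genes called were computed for the fit of all arrays on the 75th percentile scale. Among the alternatives, they were computed only for 6 h and 9 h against 0 h after quantile normalization. With normexp the median of all probes itself moved by 0.32 at 1 h and 0.44 at 3 h against 0 h, beside the medians of the 78 genes given next. With normexp background correction, the results were 2 called over time, median changes of -0.20 and -0.25 at 1 and 3 h, 0, 0, 0 and 1 higher at 0.5, 3, 6 and 9 h, 0, 1 and 3 higher at 3, 6 and 9 h against 1 h, 0, 0 and 0 lower at 0.5, 6 and 9 h and 0 and 0 lower at 6 and 9 h against 1 h. After quantile normalization, the results were median changes of 0.00, 0.07 and 0.16 at 0.5, 6 and 9 h, 2, 1 and 22 higher at 0.5, 1 and 9 h, 8 and 22 higher at 6 and 9 h against 1 h, 1, 1 and 0 lower at 0.5, 6 and 9 h and 0 and 0 lower at 6 and 9 h against 1 h. In the deposited matrix, the results were median changes of 0.01, 0.07 and 0.16 at 0.5, 6 and 9 h, 2, 1, 5 and 21 higher at 0.5, 1, 6 and 9 h, 10 and 23 higher at 6 and 9 h against 1 h, 1, 1 and 0 lower at 0.5, 6 and 9 h and 0 and 0 lower at 6 and 9 h against 1 h. With the shift to the median of each array, the results were 7 called over time, median changes of -0.28, -0.24, -0.12, -0.28 and -0.24 at 0.5, 1, 3, 6 and 9 h, 0, 0, 1 and 1 higher at 0.5, 3, 6 and 9 h, 5 and 16 lower at 0.5 and 9 h and 2 and 1 lower at 6 and 9 h against 1 h. With the shift to the mean of probes well above background on all arrays, the results were 5 and 11 higher at 6 and 9 h against 1 h, 8 lower at 0.5 h and 2 lower at 9 h against 1 h. With probes required to be well above background on every array, the results were 1 higher at 1 h and 4 lower at 0.5 h. Without a filter on dim probes, the results were 0 higher at 3 h against 1 h and 1 lower at 0.5 h. With only the 6 arrays of a contrast in the fit, the results were 0 and 3 higher at 3 and 9 h, 0 and 2 higher at 3 and 9 h against 1 h, 1, 4 and 2 lower at 0.5, 6 and 9 h and 0 and 0 lower at 6 and 9 h against 1 h. With array weights, the results were 32 called over time, 3, 1 and 10 higher at 0.5, 1 and 9 h, 10 higher at 9 h against 1 h, 12, 1 and 25 lower at 0.5, 3 and 9 h and 22 and 22 lower at 6 and 9 h against 1 h. With a trended and robust prior, the results were 2 and 1 higher at 0.5 and 1 h, 11 higher at 9 h against 1 h, 6 and 15 lower at 0.5 and 9 h and 17 lower at 6 h against 1 h. At an adjusted p below 0.01, the results were 8 called over time, 0, 0, 1 and 3 higher at 0.5, 3, 6 and 9 h, 0 higher at 3 h against 1 h, 1, 9 and 3 lower at 0.5, 6 and 9 h and 4 and 1 lower at 6 and 9 h against 1 h. With the scan day as a block, the results were 3 lower at 9 h against 1 h. Within the second scan day alone, the results were 3 higher at 9 h against 1 h and 6 and 1 lower at 6 and 9 h against 1 h. The signs below are those of genes named by the rule, where the change was called in that setting or on the 75th percentile scale, and are not a full list of the 78. The sign turned with normexp for Rps2 0.04 and Rpl13a 0.05 at 9 h against 1 h. The sign turned after quantile normalization for Rps16 0.04, Rplp1 0.03 and Rps6 0.12 at 6 h, for Rps16 0.08, Rplp1 0.19, Rps6 0.24 and Rps20 0.20 at 9 h, for Rplp1 0.13 at 6 h against 1 h, for Rps16 0.02, Rplp1 0.28, Rps6 0.34 and Rps2 0.07 at 9 h against 1 h. The sign turned in the deposited matrix for Rps16 0.04, Rplp1 0.07 and Rps6 0.12 at 6 h, for Rps16 0.08, Rplp1 0.24 and Rps6 0.23 at 9 h, for Rplp1 0.12 and Rps6 0.24 at 6 h against 1 h, for Rps16 0.02, Rplp1 0.29, Rps6 0.34 and Rps2 0.08 at 9 h against 1 h. The sign turned with the mean over the probes of a gene for Rps2 0.05 at 9 h against 1 h.

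Leaving out 1 array at a time gave -0.14 to -0.08 for the median change at 0.5 h, -0.12 to -0.03 for the median change at 1 h, -0.06 to 0.00 for the median change at 3 h, -0.18 to -0.12 for the median change at 6 h, -0.10 to -0.03 for the median change at 9 h, 12 to 21 called over the 6 time points, 0 to 1 higher at 0.5 h, 0 to 1 higher at 1 h, 0 to 2 higher at 3 h, 0 to 1 higher at 3 h against 1 h, 1 to 4 higher at 6 h, 2 to 4 higher at 6 h against 1 h, 3 to 7 higher at 9 h, 5 to 8 higher at 9 h against 1 h, 1 to 4 lower at 0.5 h, 0 lower throughout at 1 h, 3 h and 3 h against 1 h, 10 to 22 lower at 6 h, 6 to 19 lower at 6 h against 1 h, 3 to 13 lower at 9 h and 1 to 6 lower at 9 h against 1 h. With the replicate number as a block, 16 genes were called over time, 4 higher and 17 lower at 6 h, while at 9 h the numbers were 5 and 9. The correlation of deviations ran from -0.26 to 0.56 (median 0.07) for equal numbers and from -0.52 to 0.38 (median 0.01) for others. These overlapping ranges cannot decide whether the numbers pair the arrays. The cause of these changes was not tested. The 3 arrays of a time-point limit the precision, and for dim probes the signal over background does too.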
